A study of Mus musculus with 6 samples.

Results

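Heat shock proteins are molecular chaperones that bind unfolded or partly folded proteins, keep them from aggregating and help them to fold. The Hsp70 and Hsp90 families do this with ATP and with cochaperones that feed them clients and set their cycle. The small heat shock proteins, to which the α-crystallins of the eye lens belong, hold clients without ATP. Under heat or other protein damage, heat shock factor 1 binds heat shock elements before many of these genes and raises their transcription, while other members of the same families are made at high levels in unstressed cells.

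The genes described here are 10 of the 24129 gene names in the table: the small heat shock genes Hspb1, Hspb2, Cryab and Hspb8, the Hsp70 genes Hspa1a, Hspa1b and Hspa8, the Hsp90 genes Hsp90aa1 and Hsp90ab1, and the J protein gene Dnajb1. They were selected from the T1 and T2 normalized counts of this same table, as a named family, so their differences between T1 and T2 are a description and no p-value is given for them. A normalized count is the number of reads on a gene divided by the size factor of its library.

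The samples were 3 replicates of T1 cells, labelled 4T1A, and 3 replicates of T2 cells, labelled 4T1NA. Both came from 4T1GFP, a BALB/c mouse line of triple-negative mammary carcinoma that carries green fluorescent protein, after injection into mice and culture of the mammary tumor. By the paper, GFP-positive tumor cells outgrew a culture of fibroblasts sorted from the tumor, and both populations were sorted from that culture by GFP. The study used both populations to ask what separates an aggressive from a less aggressive population of 1 tumor. T1 cells had low GFP, an epithelial shape, firm attachment and fast growth, and T2 cells had high GFP, a round shape, loose attachment and slow growth. Both grew in the same serum-supplemented medium, but T2 cells were passaged without trypsin, so that handling and population cannot be told apart. The replicates are called independent in the labels, with no word on separate cultures or animals, and in bulk RNA fewer cells with a transcript and less of it per cell cannot be told apart.

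Each library held between 18133227 and 20839686 reads on genes, and 1 read was worth between 0.928 and 1.06 normalized counts. The values were whole reads in 100% of cases (tolerance 0.01 reads), which gives the reads behind each value. Keratins 8 and 18, which mark simple epithelium, were abundant in both populations (Krt8 between 17357 and 23297, Krt18 between 19625 and 25833 normalized counts), whereas Epcam lay between 2931 and 3502 in T1 and between 30.7 and 37.2 in T2, and 4 of the 6 epithelial markers were higher in T1. Of the markers of other cell types, those of leukocytes summed to between 0 and 6.51 normalized counts in T1 and between 7.17 and 14.9 in T2, and those of endothelium to at most 5.29 in any library. Fibroblast markers summed to between 20.1 and 40.0 in T1 and to at most 0.979 in T2, nearly all of it from Col1a1 and Col1a2, while Col3a1, Lum and Pdgfrb had no read. The myoepithelial list rested on Krt14 alone (between 3707 and 3845 in T1), with Acta2 under 7 and Krt5 without a read. The part of these differences in the values below was not tested.

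Because heat shock factor binds DNA before the gene, the bases upstream of the start site are shown for the members that held a heat shock element there. RefSeq promoter sequence on GRCm38.p6 was matched for 5 members, namely Hspb1, Hspb8, Hspa1a, Hspa1b and Dnajb1, and the 250 bases before each start were searched. The element was written as the paired units GAANNTTC or TTCNNGAA, each of which reads the same on both strands, and as the longer GAANNTTCNNGAA, which holds one of each and was searched on both strands. Of 32851 mouse promoters of this length, 6.69% held the first pair, 7.17% the second, 12.8% either, and 0.466% the longer form. The 60 bases from position -130 to -71 before the start follow, on the strand of the gene, with each pair in capitals. They come from chr5:135887789-135887848 (plus strand) for Hspb1, chr17:34972227-34972286 (minus strand) for Hspa1a and chr17:34959309-34959368 (minus strand) for Hspa1b.
Hspb1: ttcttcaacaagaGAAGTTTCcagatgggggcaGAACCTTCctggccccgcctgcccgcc
Hspa1a: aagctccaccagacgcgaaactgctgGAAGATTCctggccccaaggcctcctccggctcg
Hspa1b: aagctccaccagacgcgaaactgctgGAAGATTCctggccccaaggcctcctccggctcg

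Hspb1 held 2 pairs, at -117 to -110 and at -97 to -90. Hspa1a and Hspa1b held 1 pair each, at the same place (-104 to -97), and 247 of the 250 bases before their starts were identical (98.8%). Neither pair was found in the window of Hspb8 or Dnajb1, and none of the 5 windows held the longer form. A match of letters is a description and does not show that a factor binds there. As the next paragraphs give, the genes with these elements included both a gene at 1661 normalized counts and genes at or near 0.

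Among the small heat shock genes, αB-crystallin and its neighbor Hspb2 were read almost only in T1, Hspb8 was abundant in both populations and somewhat higher in T2, and Hspb1 was nearly without reads. Cryab encodes αB-crystallin, a small heat shock protein of lens, heart and muscle that also occurs in other tissues. Cryab stood at 214, 216 and 225 normalized counts in T1 replicates 1 to 3 and at 3.92, 1.02 and 1.86 in T2. The T1 libraries were tightly grouped and far above every T2 library, where the values are 4, 1 and 2 reads. The means were 218 ± 6.26 in T1 and 2.27 ± 1.49 in T2 (SD, n = 3 each). On the log2(normalized count + 1) scale the fold change was 6.17 (SE 0.34). Summed over libraries, 665 reads against 7 give a ratio of 96.0, with an exact 95% interval of 46.3 to 239.6 that covers counting error only.

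Hspb2 encodes a small heat shock protein best known from muscle. Its values were 16.9, 16.7 and 29.3 normalized counts in T1 (16, 18 and 30 reads) and 0 in each of the 3 T2 libraries. Against a floor of 3 reads per library in place of the count of 0, the mean of T1 was 7.16-fold higher. The floor is a set value and not the most that a count of 0 allows, and the counting error of the T1 reads is left out. With a mean of 10.5 over the 6 libraries Hspb2 was just above the filter of 10 for the comparison, through its T1 values alone, and its fitted log2 fold change of 4.41 (SE 0.48) depends on the pseudocount and is not a bound.

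The Hspb2 and Cryab genes are neighbors that overlap on chromosome 9 (mm10, GENCODE M21 annotation). Hspb2 lies at chr9:50751078-50752354 on the minus strand and Cryab at chr9:50751325-50756636 on the plus strand, and they overlap over 1030 bases. Exons of both cover 252 bases, which is 30.2% of the exonic length of Hspb2 and 17.04% of that of Cryab. Which strand was counted is not given in the sources used here, so reads in the shared exons cannot be told apart between the genes. In T1 the ratio of Cryab to Hspb2 was 11.1 ± 2.92 (SD, n = 3), and the libraries ranged from 7.70 to 12.9.

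Other markers of lens, where Cryab is known to be high, and of muscle, where both genes are, were at or near 0. Cryaa, the αA-crystallin gene, had no read in any library, nor had the lens crystallins Cryba1 and Crygs, nor Ckm and Myog of muscle. The summed muscle list ranged from 1.95 to 3.17 normalized counts in T1 and from 1.86 to 5.12 in T2, and the summed lens list from 3.90 to 5.29 in T1 and from 0.928 to 2.94 in T2, all of the latter from Mip.

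Hspb8 encodes the small heat shock protein that works with the cochaperone Bag3 in selective autophagy, and it lies at chr5:116408491-116422864. It stood at 2844, 3119 and 2021 normalized counts in T1 and at 3356, 4122 and 3300 in T2. The populations did not overlap, and T1 replicate 3 was the lowest of all. The means were 2662 ± 571 and 3592 ± 460 (SD, n = 3 each), with a log2 fold change of -0.45 (SE 0.15) for T1 over T2, and of -0.26 without T1 replicate 3. Bag3 itself stood between 1479 and 1859 in T1 and between 1645 and 2124 in T2, with a log2 fold change of -0.08 (SE 0.12, adjusted p = 0.601 by limma).

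Hspb1, the gene of mouse Hsp25 at chr5:135887919-135889563, had 2 reads in T1 replicate 2 and none in the other 5 libraries, so it did not enter the comparison. A copy of its sequence has to be kept in view here, since 36.6% of the 150-base windows of its transcript occur unchanged in another gene, chiefly the pseudogene Hsp25-ps1. How the authors' counting treated reads that fit more than 1 place is not given in the sources used here, so the near absence of reads is uncertain as a level.

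**Figure D1:**
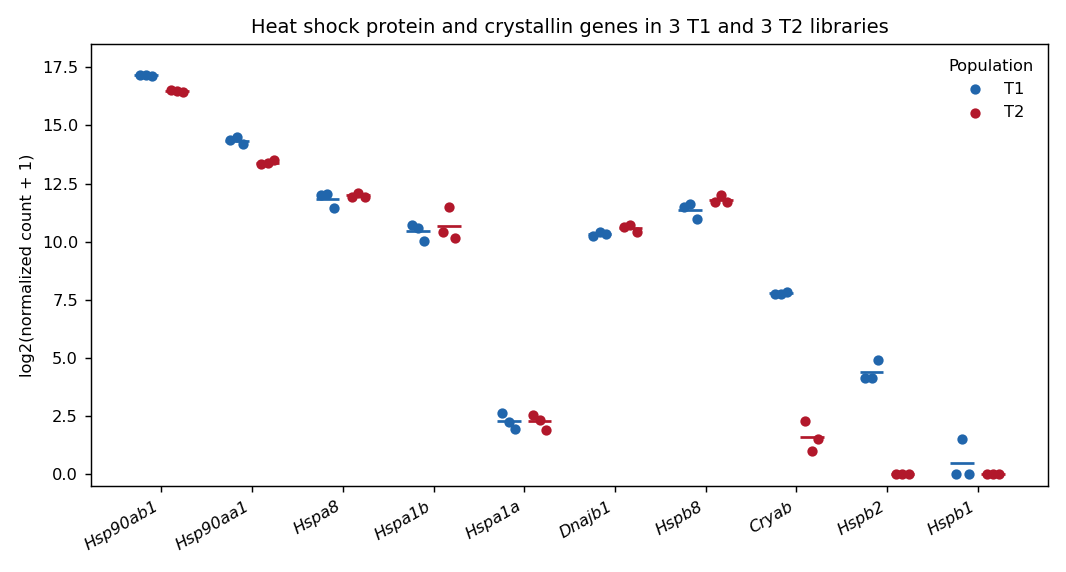
Normalized counts of the 10 genes, as log2(normalized count + 1) on the vertical axis, with 1 point per library (T1 blue, T2 red, 3 each) and a line at the mean of each population. Cryab (214 to 225 in T1, 1.02 to 3.92 in T2) and Hspb2 stand apart between the populations, both Hsp90 genes lie higher in T1, and the points of Hspa8 and Hspa1b overlap.

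The libraries of T1 and T2 overlapped for all 3 Hsp70 genes. Hspa8 encodes the constitutive Hsc70, which serves folding, clathrin uncoating and chaperone-mediated autophagy, and it lies at chr9:40800984-40810087. It stood at 4142, 4200 and 2814 normalized counts in T1 and at 3885, 4417 and 3932 in T2. T1 replicate 3 was the lowest of the 6, and the other 5 libraries lay close together. The log2 fold change was -0.15 (SE 0.14), between -0.25 and 0.035 with 1 library left out, and it was above 0 only without T1 replicate 3. Of the 150-base windows of its transcript, 56.0% also occur in 5 other genes, so a part of its reads could have been shared or dropped.

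Hspa1b and Hspa1a encode the 2 nearly identical stress-inducible Hsp70 proteins, and lie side by side on the minus strand at chr17:34956436-34959238 and chr17:34969190-34972156. Hspa1b stood at 1661, 1543 and 1058 normalized counts in T1 and at 1380, 2872 and 1153 in T2. T2 replicate 2 held the highest value, while the other 2 T2 libraries lay inside the range of T1. The means were 1421 ± 320 and 1802 ± 934 (SD, n = 3 each), and the log2 fold change was -0.25 (SE 0.29). With 1 library left out it ran from -0.51 to 0.14, and the value above 0 was the one without T2 replicate 2, so the direction rested on that library.

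Hspa1a, in spite of the near-identical sequence before its start, was listed at 5.29, 3.72 and 2.93 normalized counts in T1 and at 4.90, 4.1 and 2.78 in T2. These are 5, 4 and 3 reads in either population, under the filter, and Hspa1a was not compared. The difference in level between Hspa1a and Hspa1b is uncertain, because 46.0% of the 150-base windows of the Hspa1a transcript and 40.5% of those of Hspa1b occur in another gene, each most often in the other of the pair. The annotation also places Gm20481 over 2225 bases of Hspa1a on the opposite strand. Taking both as 1 gene gave the same log2 fold change of -0.25. With 12 reads of Hspa1a in each population, against 4313 in T1 and 5457 in T2 for Hspa1b, the sum could hardly differ. It cannot bring back reads that were dropped.

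The 2 cytosolic Hsp90 genes were the most abundant members, and both were higher in T1. Hsp90 completes the folding of kinases, steroid receptors and other signaling proteins, with Hsp90aa1 encoding the more stress-responsive and Hsp90ab1 the more constitutive form. Hsp90aa1, at chr12:110690605-110702728, stood at 20920, 22872 and 19054 normalized counts in T1 and at 10304, 10729 and 11545 in T2. Every T1 library lay well above every T2 library. The means were 20949 ± 1909 and 10859 ± 631 (SD, n = 3 each), a ratio of 1.93 and a log2 fold change of 0.95 (SE 0.085). Of its 150-base windows 36.2% occur in other genes, chiefly Gm12346, a name that is not in the table.

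Hsp90ab1, at chr17:45567775-45573271, stood at 146608, 148963 and 143418 normalized counts in T1 and at 94405, 92153 and 89867 in T2. The spread within each population was small beside the distance between them, with coefficients of variation of 1.90% and 2.46%. The ratio of the means was 1.59, and the log2 fold change was 0.67 (SE 0.078), or 0.46 after quantile normalization. None of its 150-base windows occurs in another gene. By normalized count Hsp90ab1 ranked 2 or 3 among all genes in the T1 libraries and 4 or 5 in the T2 libraries, and it took 0.759% ± 0.013 of the reads on genes in T1 and 0.483% ± 0.0080 in T2 (SD, n = 3 each).

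The balance of both Hsp90 genes differed as well. The ratio of Hsp90ab1 to Hsp90aa1 in normalized counts was 7.02 ± 0.507 in T1 (6.51 to 7.53) and 8.51 ± 0.692 in T2 (7.78 to 9.16), without overlap. Hsp90aa1 thus took a larger share of the pair in T1. Together the 10 members took 0.916% of the reads in T1 and 0.598% in T2, of which the Hsp90 pair was 94.7% and 90.3%.

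Dnajb1 encodes a J protein, the kind of cochaperone that brings clients to Hsp70 and starts its ATP hydrolysis, and lies at chr8:83608193-83612653. It stood at 1221, 1380 and 1282 normalized counts in T1 and at 1569, 1694 and 1386 in T2. The populations were apart by a margin of a few counts only, since the highest T1 library (1380) nearly reached the lowest T2 library (1386). The means were 1295 ± 80.2 and 1550 ± 155 (SD, n = 3 each), with a log2 fold change of -0.26 (SE 0.097). No 150-base window of its transcript occurs in another gene.

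**Figure D2:**
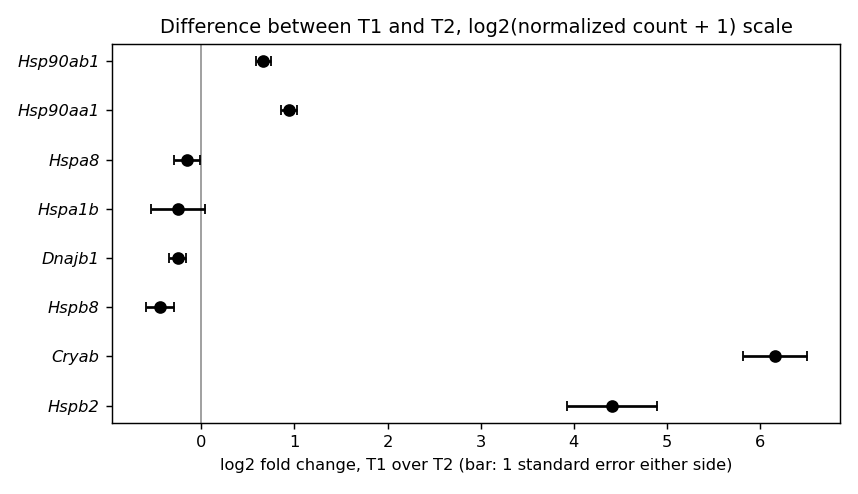
Log2 fold change of T1 over T2 on the log2(normalized count + 1) scale for the 8 members compared, with bars of 1 standard error to either side. Cryab (6.17) and Hspb2 (4.41) lie far to the right, Hsp90aa1 (0.95) and Hsp90ab1 (0.67) lie to the right of 0, and the other 4 lie between -0.45 and -0.15.

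Levels were set in order per kilobase of exon, since longer genes collect more reads. The order of the 7 highest was the same in both populations: Hsp90ab1, Hsp90aa1, Hspb8, Hspa8, Hspa1b, Dnajb1 and Cryab. In T1 the means per kilobase were 48793 for Hsp90ab1, 5329 for Hsp90aa1, 1365 for Hspb8, 865 for Hspa8, 507 for Hspa1b, 404 for Dnajb1, 148 for Cryab and 25.2 for Hspb2. In T2 they were 30724, 2762, 1842, 948, 643 and 484 for the first 6, and 1.53 for Cryab. Neighbors in this order whose libraries overlapped were Hspa1b and Dnajb1 in both populations, Hspa8 and Hspa1b in T2, and, at the low end, Hspa1a with Hspb1 in T1, Cryab with Hspa1a in T2, and Hspb2 with Hspb1 in T2, both at 0. The ranges of Hspb8 and Hspa8 did not overlap in either population on this length, which takes in every annotated exon of a gene. For Hspa8 it was 4301 bases, against 2394 for its longest coding transcript, and for Hspb8 1950 against 1816. By the means of T1 the order of these 2 genes therefore rests on the length chosen, while in T2 Hspb8 was the higher on either length. The shared sequence of Hspa8 is given above.

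Of the 10 members 8 were compared, and 4 of them (Hspb2, Cryab, Hsp90aa1 and Hsp90ab1) had an adjusted p-value under 0.01 by limma with Benjamini-Hochberg adjustment, beside 49.5% of the 11514 genes compared. All 4 were higher in T1, beside 25.1% of all genes, and 0 were lower, beside 24.4%. Hspb2 and Cryab also passed an absolute log2 fold change above 2, which 8.37% of all genes did. In 6 of the 8 the libraries of T1 and T2 did not overlap, beside 68.1% of all genes. Because the members were chosen from this contrast, nothing is read from these counts. The populations differed over a large part of the transcriptome, which is the scale on which each member's difference stands.

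The order of the replicates was counted for these genes. T1 replicate 3 was the lowest of its population in 5 of the 8 members compared, beside 37.7% of all genes, T1 replicate 2 the highest in 5, beside 29.0%, and T2 replicate 2 the highest in 4, beside 33.6%. The immediate early genes, which rise within minutes of handling, serum or stress in many cells, were listed beside them. T2 replicate 2 was the highest T2 library in 14 of 14 of these genes and T1 replicate 2 the highest T1 library in 12 of 14, with median log2 deviations from the population mean of 0.79 and 0.50. For the transcription factor gene Atf3 the values were 578, 2228 and 684 normalized counts in T1 and 195, 2897 and 267 in T2. Replicate 2 was thus high in both populations for these genes, and its part in the values of Hspa1b was not tested.

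**Figure D3:**
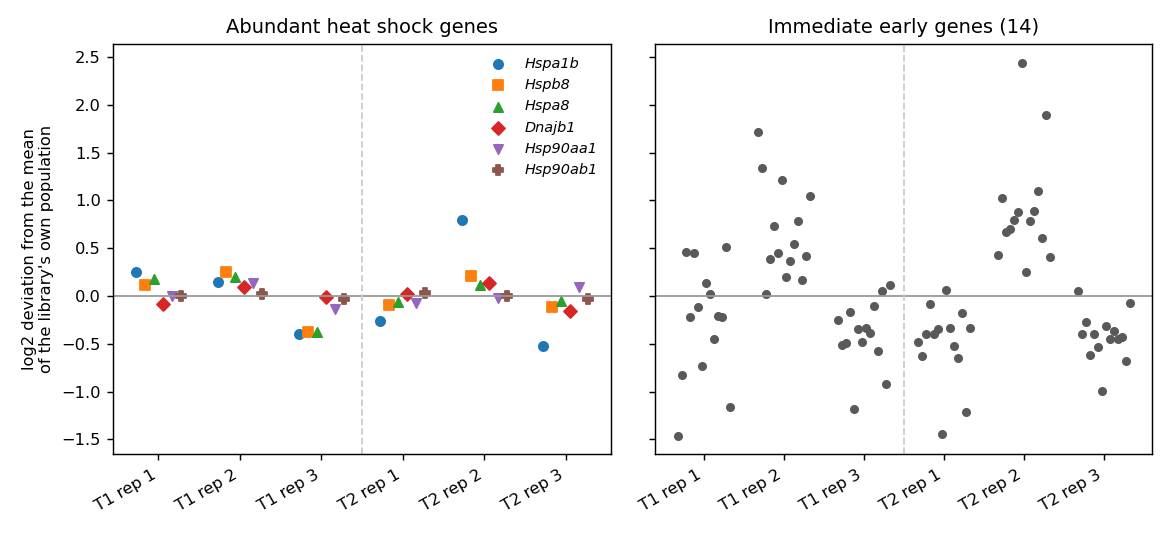
Deviation of each library from the mean of its own population on the log2 scale, for the 6 abundant members (left) and the 14 immediate early genes (right, 1 point per gene). Hspa1b in T2 replicate 2 is the highest point on the left, and replicate 2 of both populations holds the high points on the right, with medians of 0.50 in T1 and 0.79 in T2.

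Without replicate 2 of both populations, a choice made after the data were seen, the log2 fold changes were 5.88 for Cryab, 4.54 for Hspb2, 0.87 for Hsp90aa1, 0.65 for Hsp90ab1, -0.47 for Hspb8, -0.24 for Dnajb1, -0.20 for Hspa8 and 0.07 for Hspa1b. Only the last of these changed its direction. Between the populations, 7 of the 14 immediate early genes were lower in T1 and 0 higher, which is 50% lower beside 24.4% of all genes (median log2 fold change -1.10). Of those called, Fos (-2.26, adjusted p = 0.00815 by limma) lost its call in 5 of the 6 fits with 1 library left out, all but the one without T1 replicate 2 (adjusted p up to 0.0355), and also with edgeR and DESeq2. Without the variance trend Fos, Egr1 and Jun all lost their calls. The 14 genes ran from Egr2 (-2.87, SE 0.39, adjusted p = 0.000101 by limma) to Btg2 (1.43, SE 0.69, adjusted p = 0.0955). Btg2 passed the test, higher in T1, without T2 replicate 2 (adjusted p = 0.00137). So did Atf3 (adjusted p = 0.00586), which gave 0.85 in all 6 libraries (SE 0.87, adjusted p = 0.417). The count of 0 higher thus rested on T2 replicate 2 for these genes.

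Genes of the same chaperone network that are not members were tested in the same fit, with p-values adjusted over all 11514 genes. Of 138 such genes 120 were compared, of which 45 were higher and 12 lower in T1 at an adjusted p-value under 0.01 (37.5% and 10%, beside 25.1% and 24.4% of all genes). Their median log2 fold change was 0.15, beside -0.0055 over all genes. Hspa12b alone of them passed the log2 fold change of 2. The counts were 30 higher and 7 lower without replicate 2 of both populations, which leaves 2 libraries on each side.

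None of the 3 heat shock factor genes and binding partners compared passed the test. Hsf1, the main factor of the heat shock response, stood at 1341, 1398 and 1379 normalized counts in T1 and at 1207, 1374 and 1095 in T2, with a log2 fold change of 0.17 (SE 0.097, adjusted p = 0.151 by limma). Hsf2 gave 0.17 (SE 0.13, adjusted p = 0.291). These are RNA levels, and heat shock factor 1 is known to be regulated largely after translation. Among the other small heat shock genes, 2 of 7 were compared and neither passed. Hspb6 stood between 254 and 276 in T1 and between 247 and 323 in T2 (-0.10, SE 0.14, adjusted p = 0.547).

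Of 23 cochaperones of Hsp90 compared, 13 were higher and 1 lower in T1 (56.5% and 4.35%, beside 25.1% and 24.4% of all genes), with a median log2 fold change of 0.36. Fkbp4, an immunophilin of the steroid receptor complex, stood at 9872, 10582 and 10645 normalized counts in T1 and at 5301, 5527 and 4821 in T2, a log2 fold change of 0.99 (SE 0.076, adjusted p = 1.95e-06 by limma). Ahsa1, which speeds the ATPase of Hsp90, rose by 0.85 (SE 0.073, adjusted p = 4.31e-06), and Stip1, which links Hsp70 to Hsp90, by 0.55 (SE 0.066, adjusted p = 4.33e-05). The exception was Fkbp5, an immunophilin induced by glucocorticoids, at 2162, 2180 and 2142 in T1 and 3766, 3774 and 3704 in T2 (-0.79, SE 0.067, adjusted p = 3.74e-06). Without replicate 2 of both populations the higher count in this list was 8, and without T1 replicate 3 the lower count was 2.

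Of 8 Hsp70 and Hsp110 genes compared, 1 was higher and 3 were lower in T1 (12.5% and 37.5%, beside 25.1% and 24.4% of all genes, too few genes to set the list apart), and the median log2 fold change was -0.45. Hspa12b, a distant Hsp70 relative known from endothelium, had 22.2, 7.44 and 5.86 normalized counts in T1 and 70.5, 57.3 and 65.0 in T2 (-2.56, SE 0.43, adjusted p = 0.000426 by limma). Of the endothelial markers, Kdr had no read, and Cdh5 and Tek had at most 1.06 normalized counts, in T1 only. Pecam1 stood between 0 and 3.17 in T1 and between 0 and 4.64 in T2. Hspa13, which is tied to microsomes, gave a log2 fold change of -1.003 (SE 0.093, adjusted p = 7.44e-06). Hspa4, of the Hsp110 group, was higher by 0.37 (SE 0.086, adjusted p = 0.00374), but this call was lost when any library except T1 replicate 3 was left out (adjusted p up to 0.0197). Hsph1, a heat-inducible Hsp110, stood between 5094 and 6642 in T1 and between 5004 and 7068 in T2 (-0.06, SE 0.13, adjusted p = 0.704).

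Of 29 J proteins compared, 8 were higher and 3 lower in T1 (27.6% and 10.3%, beside 25.1% and 24.4% of all genes), with a median of 0.08. Dnajc21, a ribosome-associated J protein, rose by 0.85 (SE 0.081, adjusted p = 9.08e-06 by limma), and Dnajb2, which handles misfolded proteins for degradation, by 0.84 (SE 0.13, adjusted p = 0.000232). Lower in T1 were Dnajb4, with a log2 fold change of -0.999 (SE 0.11, adjusted p = 2.53e-05), and Dnajb13, a sperm flagellum protein with 3.72 to 4.23 normalized counts in T1 and 9.28 to 38.9 in T2, with -1.97 (SE 0.50, adjusted p = 0.00608). With a mean of 12.8 over the 6 libraries, Dnajb13 passed the filter of 10 through its T2 values alone, and without T2 replicate 2 it was not compared. Its call was lost without any 1 T1 library or T2 replicate 1 (adjusted p up to 0.0219). Without T2 replicate 1 only 1 J protein was lower. Dnaja1, a cytosolic partner of Hsc70, gave 0.08 (SE 0.15, adjusted p = 0.673), and Dnajb6 0.30 (SE 0.095, adjusted p = 0.0190). The related Dnaja2 was more abundant and higher in T1, with means of 7728 in T1 and 4693 in T2 (0.71, SE 0.087, adjusted p = 4.87e-05 by limma).

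Of 7 nucleotide exchange and related factors of Hsp70, 3 were higher and 1 was lower in T1 (42.9% and 14.3%, beside the same shares of all genes), with a median of 0.19. Hspbp1 rose by 0.80 (SE 0.10, adjusted p = 8.62e-05 by limma) and Bag1 by 0.48 (SE 0.070, adjusted p = 0.000189). Bag2 fell by 0.35 (SE 0.091, adjusted p = 0.00652), a call that was lost whichever of the 6 libraries was left out (adjusted p from 0.0129 to 0.0211).

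The lists of the cytosolic ring chaperonin and of mitochondria held higher calls and no lower one. TRiC, which folds actin and tubulin, and its partner prefoldin had 9 of 14 genes higher and 0 lower in T1 (64.3% higher, beside 25.1% of all genes), with a median log2 fold change of 0.44. Cct2 stood at 20460, 21050 and 20857 normalized counts in T1 and at 11265, 10526 and 11661 in T2 (0.90, SE 0.070, adjusted p = 2.07e-06 by limma), and Cct5 rose by 0.71 (SE 0.067, adjusted p = 8.02e-06). Of 15 mitochondrial genes 8 were higher and 0 lower (53.3% higher), with a median of 0.38. Hspa9, the mitochondrial Hsp70, stood at 27194, 28212 and 30028 in T1 and at 12468, 12819 and 12074 in T2 (1.19, SE 0.071, adjusted p = 3.33e-07). The chaperonin Hspd1 rose by 0.82 (SE 0.079, adjusted p = 9.46e-06), its partner Hspe1 by 0.62 (SE 0.082, adjusted p = 9.16e-05), and Trap1, the mitochondrial Hsp90, by 0.75 (SE 0.094, adjusted p = 6.13e-05).

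Chaperones of the endoplasmic reticulum were divided. Of 19 compared, 3 were higher and 4 lower in T1 (15.8% and 21.1%, beside 25.1% and 24.4% of all genes), with a median of -0.13. Hspa5, the Hsp70 of this compartment, stood at 52647, 63265 and 46510 normalized counts in T1 and at 36540, 45228 and 41708 in T2 (0.39, SE 0.12, adjusted p = 0.0165 by limma), and missed the threshold. It passed after quantile normalization, with DESeq2, with the replicate number as a block and without T1 replicate 3, with adjusted p-values down to 0.00179. Hsp90b1, the Hsp90 of this compartment, gave -0.13 (SE 0.093, adjusted p = 0.239), against 0.95 and 0.67 for the cytosolic members. The difference between compartments itself was not tested. Sdf2l1 rose by 0.47 (SE 0.13, adjusted p = 0.00954) and Dnajb11 by 0.36 (SE 0.084, adjusted p = 0.00400), while Dnajb9 (-1.08, SE 0.30, adjusted p = 0.00877) and Dnajc10 (-0.41, SE 0.073, adjusted p = 0.000637) were lower. The 3 higher calls became 0 without T1 replicate 1, T1 replicate 2 or T2 replicate 1 and 1 without T2 replicate 3. The call of Sdf2l1 was lost whichever library was left out (adjusted p up to 0.0366), and that of Dnajb9 without T1 replicate 1 or 3 or T2 replicate 2 or 3 (up to 0.0344). Dnajb11 lost its call without T1 replicate 1, T1 replicate 2 or T2 replicate 1 (up to 0.0236).

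**Figure D4:**
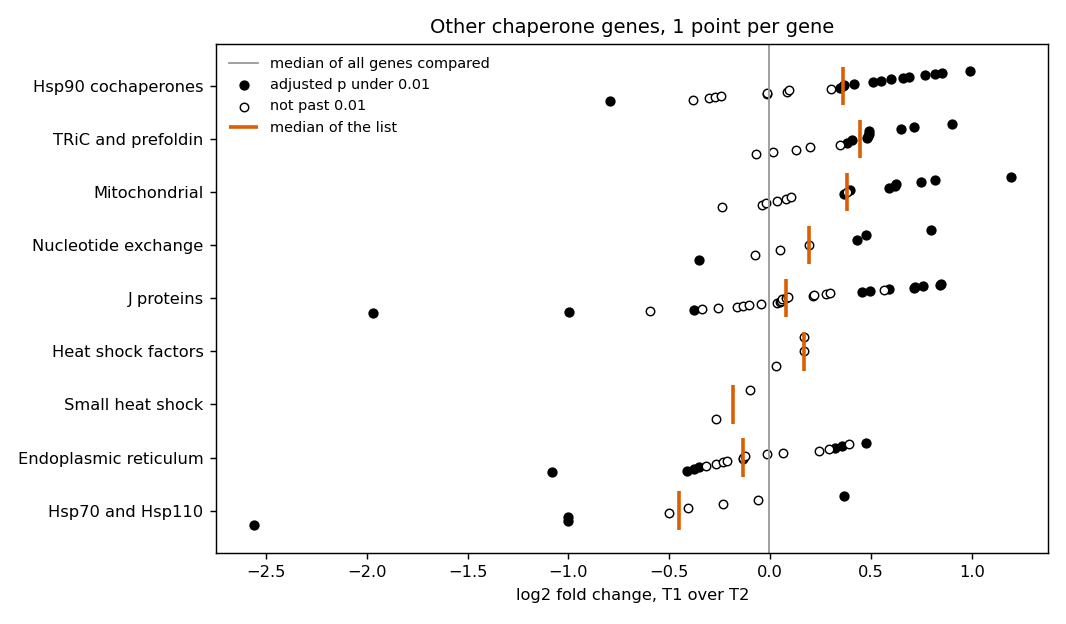
Log2 fold change of T1 over T2 for the 120 other chaperone genes compared, by list, with filled points where the adjusted p-value was under 0.01, an orange line at the median of each list and a gray line at the median of all genes. Hsp90 cochaperones, TRiC and prefoldin, and mitochondrial chaperones lie mostly to the right of the gray line (medians 0.36, 0.44 and 0.38), and the Hsp70 and Hsp110 list to its left (-0.45).

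The heat shock element was also looked for before the other chaperone genes. Of the 114 with a RefSeq promoter, 20 held a paired form in the 250 bases before a start, and 3 the longer form, Dnajb6, Hspd1 and Hspe1. A gene counts here if any of its starts held the form, while the 12.8% given above is per promoter. Hspd1 and Hspe1 are neighbors on opposite strands, and their longer matches are the same stretch of DNA, so they are not separate observations. Hspd1 and Hspe1 were higher in T1, and Dnajb6 missed the threshold as given above. Of the members with an element only Hspa1b had the reads for a comparison, and its libraries overlapped, while those of Hspb8 and Dnajb1, the members searched without an element, did not. Nothing is read from so few genes. Cryab and both Hsp90 genes, which differed, were not among the promoters matched.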

How the data were processed

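Total RNA of the 6 cell samples had been made into libraries with a modified TruSeq RNA v2 protocol. The deposited signal was a read count per gene that the authors had divided by a DESeq2 size factor, after trimming, alignment to mm10 with TopHat2 and counting with HTSeq; versions, annotation and strand setting are not given in the sources used here. All sample columns were used (0 unused), and 27 names changed to dates were not named.

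Reads were recovered from the steps of the values. For genes whose mean reached 10 normalized counts, limma 3.58.1 was run in R 4.3.3 on log2 values (pseudocount 1), with a variance trend, no covariate and Benjamini-Hochberg adjustment over 11514 genes. A gene was called at an adjusted p-value under 0.01, and also with an absolute log2 fold change above 2. edgeR 4.0.16 called 5716 genes on the recovered reads and DESeq2 1.42.0 called 6067, against 5701 by limma. The fit was tested on simulated data. Intervals and floors (3 reads) cover counting error only, and p-values measure the spread between these samples, which may be technical.

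The members and the gene lists were chosen with earlier results of these data known. Genes named were all members, 17 fixed chaperone genes, the 2 largest changes per direction in each chaperone list among those called, and in the companion lists the extremes and defining markers. Atf3, Fos, Egr1, Jun, Krt8, Krt18, Col1a2 and Dnaja2 were added after their values were seen. Alternatives were the pseudocount (0.5 and 5), the filter (none, or a mean of 50), quantile normalization, no variance trend, edgeR, DESeq2, the replicate number as a block, each replicate left out, and Hspa1a with Hspa1b as 1 gene. Coordinates and exonic lengths came from GENCODE M21 on mm10, and promoters from RefSeq on GRCm38.p6. Plots were made in Python 3.11.15 (matplotlib 3.10.9).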

Additional observations from a re-analysis of the deposited data

How the results depend on the processing

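Over all genes the number called was 5701, and it lay between 4941 and 6067 under the other settings and between 4654 and 5804 with 1 library left out. For the other chaperone genes the 57 calls became 45 to 63 and 43 to 57. Without the variance trend, 7 of them were lower in T1 against 12 (8 to 13 with 1 library left out), and without replicate 2 of both populations, an alternative chosen after the data were seen, 37 were called, of which 7 were lower. In each case the cause was not tested. Genes past both filters numbered 964, from 659 with a filter at a mean of 50 to 1272 with none. The counts of single lists moved by over 1.5 times in 29 of 288 settings. Hspb2 was compared only where its mean passed the filter, and its log2 fold change of 4.41 became 5.38 with a pseudocount of 0.5, 2.34 with 5, 7.43 with edgeR and 6.87 with DESeq2. That of Cryab became 4.96 with a pseudocount of 5. For 46 of the named genes that are not members, 671 of 729 settings kept the call, 50 lost it, 8 gained it and 0 turned a called direction.

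With the replicate number as a block, 5780 genes were called, among them 56 of the other chaperone genes, 53 of which were also called without it. Deviations of same-numbered libraries correlated at 0.057, 0.17 and 0.10 over genes for replicates 1, 2 and 3. As 1 of the 3 is under 0.1 and the labels tie the numbers to no shared culture or day, pairing was not established, although replicate 2 was high in both populations for immediate early genes. Depth limits Hspb1, Hspa1a, Hspb2 and the T2 values of Cryab, which rest on 0 to 30 reads per library.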
